A study of Mus musculus with 7 samples.

Results

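The genes described here repair broken or miscopied DNA by routes other than copying from a sister chromatid. They were chosen by name and function as 36 genes of break sensing, end joining, mismatch repair and base excision repair, with a few helicases and strand-annealing proteins, and all 36 were found in a table of 52224 genes. RNA was measured by sequencing in haematopoietic stem cells, the bone marrow cells that renew the blood, sorted from wild-type C57BL/6J mice as lineage-negative, Sca-1 and c-Kit positive cells with CD150 and without CD48. The sorted cells were kept in culture for 48 h with DMSO, the solvent control (3 libraries), with gemcitabine at 0.5 µM (Gem, 2 libraries), or with hydroxyurea at 100 µM (HU, 2 libraries). The labels name no edited gene, and by the labels the groups differ in the agent alone. Gemcitabine is a cytidine analogue that blocks DNA synthesis, and hydroxyurea inhibits ribonucleotide reductase, the source of deoxynucleotides. The labels give neither the age nor the sex of the mice, and do not tell whether each library had its own mouse or culture. The p-values therefore reflect library-to-library spread, part or all of which may be technical.

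A DNA double-strand break is sensed by the MRE11, RAD50 and NBN complex, which activates the kinase ATM; ATM marks the histone H2AX beside the break and draws in adaptor proteins and ubiquitin ligases. Non-homologous end joining then holds the ends with the Ku pair, trims them and ligates them without a template. Mismatch repair recognises copying errors with MSH proteins, and base excision repair removes a damaged base, cuts the strand and refills the gap. Quiescent stem cells lack a sister chromatid, so end joining is their main way to close a break, whereas cells in S phase use replication-linked repair as well.

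Levels are given as FPKM, fragments scaled by transcript length and by the fragments of the library, as deposited. FPKM is corrected for transcript length, so levels of different genes can be compared roughly. The annotation behind the lengths is not given and the RNA was amplified, so the order of genes by level is approximate. Differences are log2 fold changes of log2(FPKM + 1), tested with limma over 13865 genes that reached 1 FPKM in at least 2 libraries, and a gene is called where the Benjamini-Hochberg adjusted p over all these genes is below 0.05. All 36 repair genes were among the genes tested.

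The whole table shifted between groups. Summed FPKM lay between 818775 and 832979 in DMSO, between 703016 and 729258 in Gem and between 647760 and 651315 in HU, and the number of genes above 0 was 21251 to 23047 in DMSO and 27887 to 31153 in the drug libraries. The median gene tested lay at a log2 difference of -0.25 in Gem and -0.30 in HU. Trimmed-mean scaling, which puts the bulk of tested genes at the same level in every library, moved these medians to 0.01 and 0.01, and "scaled" below means after that step. In bulk RNA, fewer cells of a type and less RNA per cell cannot be told apart. Of the markers of the sorted cell, Slamf1, which encodes CD150, was at 0.41 to 1.25 FPKM and Kit at 28.98 to 48.22, and the 12 stem cell markers summed to 277 to 292 in DMSO, to 222 and 242 in Gem and to 206 and 215 in HU. Granulocyte and monocyte markers (11 genes) summed to 38376 to 42998 FPKM in DMSO, with 47546 to 49048 in Gem and 44304 to 47683 in HU. Lyz2 made up most of that sum, at 21717.58 to 30761.19 in DMSO and 32468.87 to 36422.26 in the drugs, while 9 of the 11 had differences below 0 in each drug, and 3 were called lower in Gem and 4 in HU. The mast cell and basophil markers (7 genes) summed to 283 to 1358, 220 to 403 and 200 to 205. The 6 megakaryocyte markers summed to 1738 to 2815, 1705 to 1801 and 1359 to 1556 FPKM, and the 7 erythroid markers to 40.9 to 74.2, 30 to 30.5 and 30.8 to 31.7. No marker of these lists was at 0 in every library, and the part of these cells in the results below was not tested.

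Within the DMSO libraries the repair genes spanned a wide range of levels. H2ax was highest at 138 ± 20.9 FPKM (SD, n = 3), followed by Apex1 at 108 ± 7.99 and Fen1 at 97.5 ± 20.7. Apex1 and Fen1 share 61.7% and 78.8% of their exonic bases with a gene on the other strand, so their places are less certain. The libraries of H2ax and Apex1 nearly met, at 113.81 and 112.71, those of Apex1 and Fen1 overlapped, and the highest Parp2 library (76.76; mean 63.7 ± 16.0) lay just under the lowest Fen1 library (79.49). Xrcc1, Parp1 and Xrcc6 followed at 47.5 ± 2.29, 46.3 ± 2.96 and 43.9 ± 1.78, and in this order each gene's libraries overlapped those of the next. In all, 7 members had a DMSO mean over 40 FPKM, 14 lay between 10 and 40, and 15 lay under 10, of which 8 were under 5. The median member stood at 11.2 FPKM, beside 9.44 for all genes tested. By role, the median was 28.8 FPKM for the 11 base excision genes, 14.2 for the 9 break sensing genes, 10.3 for the 4 mismatch repair genes, 10.3 for the 4 helicases and annealing or exchange proteins, and 3.96 for the 8 end joining genes.

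**Figure D1:**
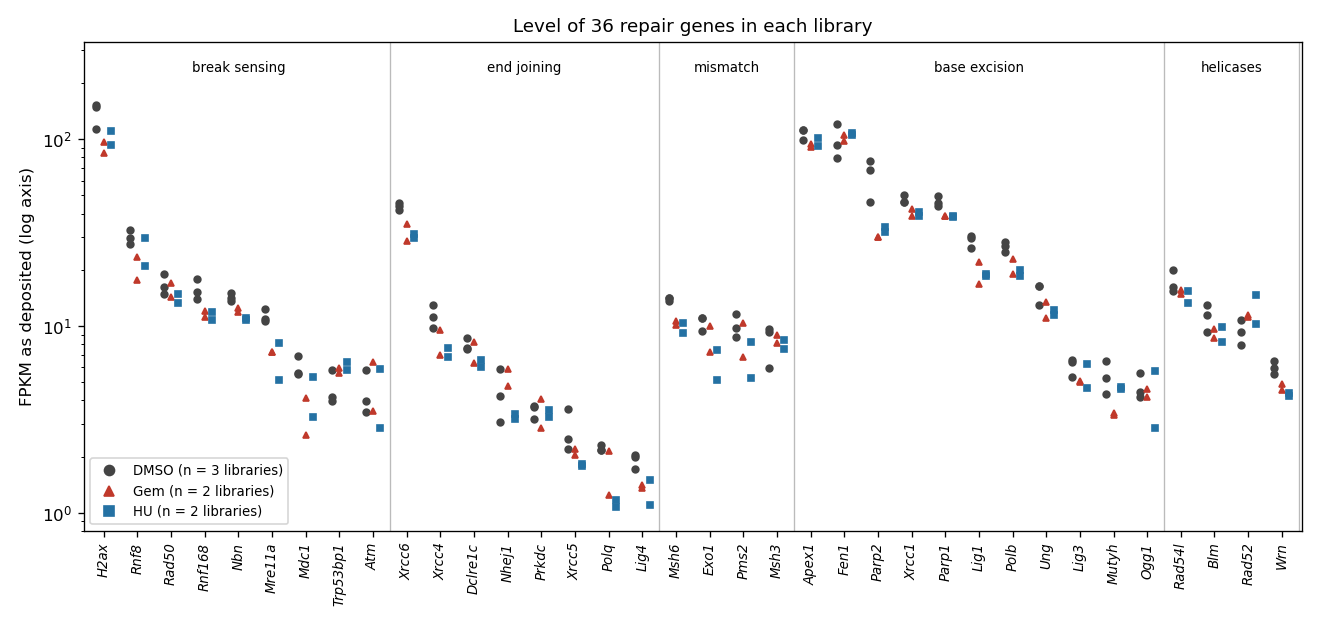
FPKM as deposited on a log axis for the 36 repair genes, grouped by role and ordered by DMSO mean; each point is 1 library of DMSO (circles), Gem (triangles) or HU (squares). H2ax is highest at 138 FPKM on average in DMSO and Lig4 lowest at 1.92, and many of the drug points lie a little under the DMSO points.

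As deposited, 6 of 36 members (16.7%) were called lower in Gem, where 23.2% of all genes tested were lower, and 0 were called higher, where 1.5% of all genes were. In HU, 15 of 36 (41.7%) were called lower, beside 35.5% of all genes, and 0 higher, beside 4.46%. The members' median log2 difference was -0.26 in Gem and -0.32 in HU, close to the -0.25 and -0.30 of all genes tested. Both shares lie near the background. The 6 members lower in Gem were Mre11a, H2ax, Xrcc6, Msh6, Parp2 and Lig1, and these were also lower in HU; the contrasts share the 3 DMSO libraries. HU added Nbn, Rnf168, Xrcc4, Polq, Exo1, Parp1, Xrcc1, Polb and Wrn. These calls rest on few libraries: with each of the 5 libraries of the groups compared left out in turn, 0 of the 6 Gem calls and 1 of the 15 HU calls (Xrcc6) passed every time, and 2 Gem calls (Mre11a and Msh6) and 4 HU calls (Parp1, Xrcc1, Polq and Wrn) passed in none of these fits.

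After scaling, 0 members were called in Gem in either direction (limma; 4 had an unadjusted p below 0.05), beside 0.952% of all genes. In HU 1 member was called higher, Rad52, beside 4.67% of all genes, and 0 lower, beside 5.42% (5 members in all had an unadjusted p below 0.05). The direct test of Gem against HU called 0 members as deposited (0 at an unadjusted p below 0.05 as well), beside 0.101% of all genes in either direction.

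**Figure D2:**
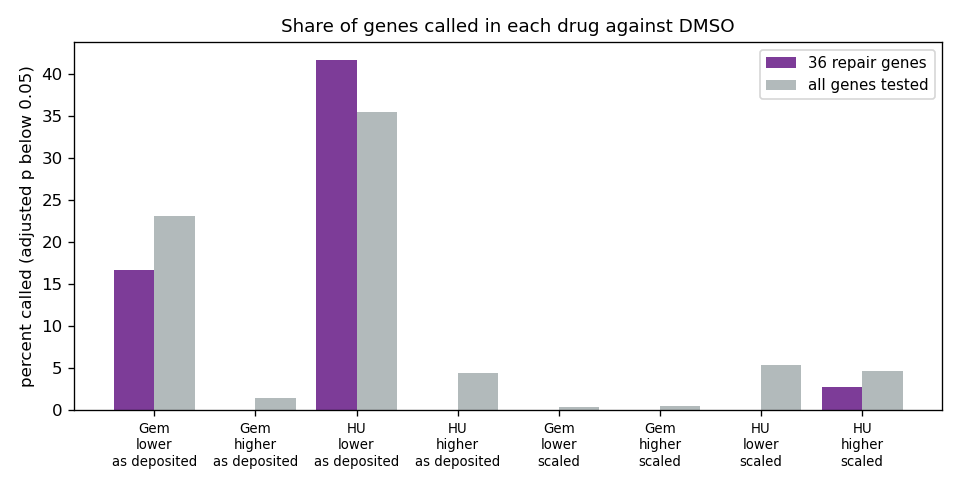
Percent of the 36 repair genes (dark bars) and of all 13865 genes tested (light bars) called at an adjusted p below 0.05 in Gem or HU against DMSO, lower and higher, as deposited and scaled. The dark bar for HU lower as deposited stands at 41.7% beside 35.5%, and after scaling the dark bar that shows is for HU higher, at 2.78% beside 4.67%.

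A simpler count gives the same picture. As deposited, all 4 drug libraries lay below all 3 DMSO libraries for 17 of 36 members (47.2%), beside 42.6% of all genes, and above them for 0 members, beside 3.76%. By role these 17 were 5 of 9 break sensing genes, 5 of 8 end joining genes, 1 of 4 mismatch repair genes, 5 of 11 base excision genes and 1 of 4 helicases and annealing or exchange proteins. After scaling, 3 members lay below in all drug libraries (8.33%), beside 11.4% of all genes: Mre11a, Msh6 and Parp2. Another 4 lay above (11.1%), beside 10.6%: Trp53bp1, Msh3, Fen1 and Rad52.

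**Figure D3:**
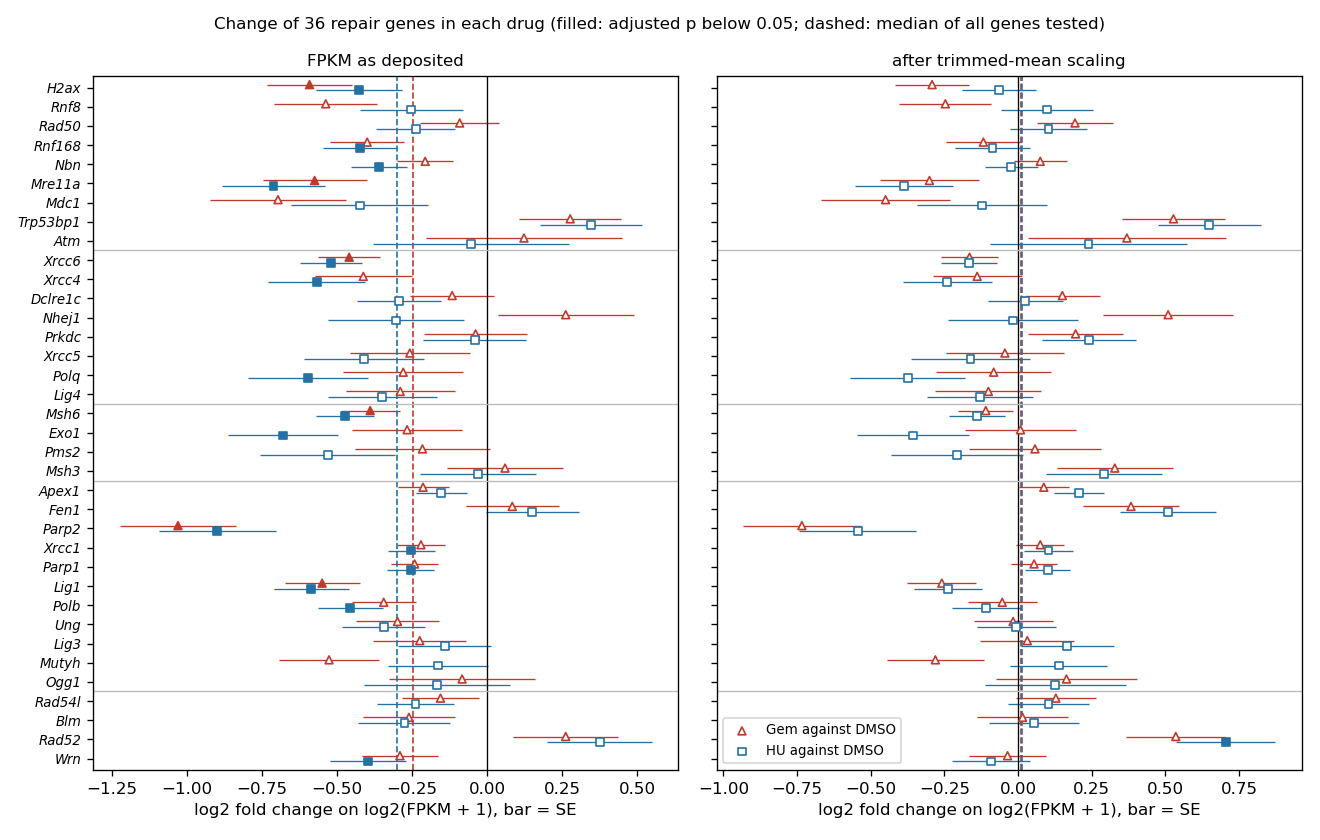
Log2 fold change on the log2(FPKM + 1) scale with its SE (bars) for each repair gene in Gem (triangles) and HU (squares) against DMSO, as deposited on the left and scaled on the right; filled symbols passed an adjusted p below 0.05 and dashed lines mark the median of all genes tested. On the left most genes lie around the dashed lines at -0.25 and -0.30, with Parp2 farthest left; on the right Rad52 in HU is the single filled symbol.

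Promoters were read because part of these genes are replication genes, whose promoters often bind E2F, the factor that turns on S-phase genes. RefSeq promoters (build GRCm38.p6, the assembly of mm10, 250 bases before to 50 after each start) were found for 29 of 36 members, 35 promoters in all. The letters TTTCCCGC, TTTCGCGC, TTTGCCGC or TTTGGCGC, on either strand, lay in 5 of 35 (14.3%), beside 2.26% of all 32851 promoters in the table and 4.02% of the 12106 promoters of genes tested. The letters CCAAT lay on either strand in 17 of 35 (48.6%), beside 37.4% and 38.1%. A match is a description of the sequence and not a bound site. The E2F letters were in Msh3, Msh6, Xrcc6, Mdc1 and Lig1. As deposited, Msh6, Xrcc6 and Lig1 were called lower in both drugs and Msh3 and Mdc1 in neither. Of these 5 genes, 4 are shown, and 1 of the CCAAT matches is shown as an example, in Mre11a. All are 30 bases, read 5′ to 3′ on the gene's strand, with the matching letters in capitals.
Msh6: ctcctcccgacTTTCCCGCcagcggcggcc
Xrcc6: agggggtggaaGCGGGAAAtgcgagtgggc
Mdc1: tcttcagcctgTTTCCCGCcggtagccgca
Lig1: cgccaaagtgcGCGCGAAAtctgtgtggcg
Mre11a: gccattctgtagCCAATgagaatctagaca
These stretches are, on the plus strand, chr17:87975054-87975083 for Msh6, chr15:82016312-82016341 for Xrcc6, chr17:35841471-35841500 for Mdc1, chr7:13278841-13278870 for Lig1 and chr9:14784604-14784633 for Mre11a. The Xrcc6 and Mre11a stretches begin 57 and 50 bases before the start, the Mdc1 stretch spans it, and the Msh6 and Lig1 stretches lie after it. Some of these RefSeq starts differ from the outermost start in GENCODE M21, as in Xrcc6 and Lig1.

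Among the sensors of breaks, the nuclease gene Mre11a (chr9:14784654-14837123, GENCODE M21 on GRCm38) was lower in every drug library. Its FPKM was 12.32, 10.97 and 10.67 in DMSO, 7.23 and 7.30 in Gem, and 5.17 and 8.15 in HU. Every drug library was below every DMSO library, and HU 1 was the lowest. The log2 fold change was -0.57 (SE 0.17, limma adjusted p = 0.0483) in Gem and -0.71 (SE 0.17, adjusted p = 0.0155) in HU. The Gem call was lost without any 1 of the DMSO or Gem libraries (adjusted p = 0.0661 to 0.185), and the HU difference was -0.65 without DMSO 1 (adjusted p = 0.0505), -0.43 without HU 1 (adjusted p = 0.0728) and -0.995 without HU 2 (adjusted p = 0.0102). Scaled, it was -0.30 (adjusted p = 0.416) and -0.39 (adjusted p = 0.202), and the groups still did not overlap, at 9.51 to 10.69 in DMSO and 5.90 to 9.08 in the drugs. Without HU 1 the scaled HU difference was -0.10 (adjusted p = 0.728).

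The partners of MRE11 in the complex did not share its size of difference. Nbn, whose product links the complex to ATM, measured 13.64, 15.04 and 14.07 FPKM in DMSO, 12.53 and 11.90 in Gem, and 11 and 10.77 in HU. The groups did not overlap, and the step was small. Nbn was called in HU (-0.36, SE 0.09, limma adjusted p = 0.0201), not in Gem (-0.21, SE 0.09, adjusted p = 0.145), and scaled it was -0.02 in HU and 0.08 in Gem. The HU call was lost without DMSO 2, HU 1 or HU 2 (adjusted p up to 0.0798). Rad50, the long coiled-coil subunit, lay at 14.92, 16.27 and 18.98 FPKM in DMSO, 16.95 and 14.29 in Gem, and 13.20 and 14.79 in HU, with overlap in Gem. The ratio of Rad50 to Mre11a FPKM was 1.21 to 1.78 in DMSO and 1.81 to 2.55 in the drug libraries, which does not overlap, whereas the ratio of Nbn to Mre11a was 1.11 to 1.37 and 1.32 to 2.13, which does. These ratios were looked at after the values were seen and were not tested.

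H2ax, the histone variant that is phosphorylated around a break (chr9:44334694-44336077, listed as H2afx in GENCODE M21), was the most abundant member. Its FPKM was 147.91, 151.78 and 113.81 in DMSO, 96.55 and 84.69 in Gem, and 93.58 and 110.17 in HU. The drug libraries lay below all DMSO libraries, HU 2 only just below DMSO 3. H2ax was called in Gem (-0.59, SE 0.14, limma adjusted p = 0.0242) and in HU (-0.43, SE 0.14, adjusted p = 0.0479); scaled, it was -0.29 and -0.07 and neither passed (adjusted p = 0.297 and 0.794). As deposited, leaving out any library of the groups compared except DMSO 3 ended the call, with adjusted p up to 0.158 in Gem and 0.246 in HU.

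The remaining signalling genes were mixed. Rnf168, the ubiquitin ligase that marks chromatin for 53BP1, was called in HU (-0.42, SE 0.12, limma adjusted p = 0.0299) and in Gem had an adjusted p of 0.0522, and its drug libraries (10.83 to 11.97 FPKM) all lay below DMSO (13.95 to 17.88); the HU call held without DMSO 2 but not without any other DMSO or HU library (adjusted p up to 0.147). Mdc1, the adaptor that reads phosphorylated H2AX, also lay below DMSO (5.53 to 6.89) in every drug library (2.62 to 5.36) without passing the test. Rnf8, the ligase upstream of RNF168, was below DMSO (27.47 to 32.63) in Gem (17.59 and 23.29), and overlapped it in HU (20.94 and 29.54). Atm, the apical kinase, ranged from 3.46 to 5.80 in DMSO, from 3.52 to 6.42 in Gem and from 2.83 to 5.86 in HU, so the libraries of a group differed as much as the groups.

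Trp53bp1 encodes 53BP1, which shields broken ends from resection and favours end joining (chr2:121193281-121271407). Its FPKM was 3.95, 4.15 and 5.83 in DMSO, 5.58 and 5.96 in Gem, and 5.78 and 6.44 in HU. DMSO 1 and DMSO 2 lay under every drug library and DMSO 3 among them. The difference was 0.28 in Gem and 0.35 in HU (SE 0.17 each, limma adjusted p = 0.261 and 0.142), and scaled it was 0.53 (adjusted p = 0.193) and 0.65 (adjusted p = 0.0586), with no overlap. Without DMSO 3 the HU difference passed, at 0.49 as deposited (adjusted p = 0.033) and 0.80 scaled (adjusted p = 0.0206). It did not pass with any other library left out, and was 0.26 without DMSO 1 (adjusted p = 0.314; scaled 0.56, adjusted p = 0.16) and 0.29 without DMSO 2 (adjusted p = 0.284; scaled 0.58, adjusted p = 0.141). The gene shares 15% of its exonic bases with Tubgcp4 on the other strand, at 31.87 to 40.53 FPKM, and the labels' protocols do not state that the libraries keep strand, so reads from the shared part cannot be told apart.

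In end joining, the Ku subunits stood far apart. Xrcc6, which encodes Ku70 (chr15:81987835-82040085), had 42.00, 45.52 and 44.17 FPKM in DMSO, 35.20 and 28.45 in Gem, and 31.20 and 29.42 in HU. The DMSO libraries were close together and well above every drug library. The test called it in Gem (-0.46, SE 0.10, limma adjusted p = 0.0197) and in HU (-0.52, SE 0.10, adjusted p = 0.00737). Scaled, the difference was -0.17 in both drugs and did not pass (adjusted p = 0.439 and 0.333). As deposited, the Gem call was lost without DMSO 2 or Gem 2 (adjusted p up to 0.124), and the HU call held with each library left out (adjusted p = 0.0161 to 0.0452). Xrcc5, which encodes Ku80, its obligate partner, was listed at 2.20, 2.49 and 3.61 in DMSO and 1.77 to 2.19 in the drugs, so Xrcc6 was 12.2 to 19.1 times Xrcc5 in every library. How the deposited values split reads among transcripts is not known, and that ratio describes mRNA values only. Xrcc6 shares 7.69% of its exonic bases with Desi1 on the other strand, at 12.99 to 16.26 FPKM in DMSO and 9.89 to 10.68 in the drugs. Reads from that shared part cannot be told apart.

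Xrcc4, the scaffold of the ligation step (chr13:89774027-90089608), had 12.90, 11.14 and 9.78 FPKM in DMSO, 9.51 and 7.01 in Gem, and 7.66 and 6.84 in HU. All drug libraries lay below DMSO, Gem 1 narrowly. It was called in HU (-0.57, SE 0.16, limma adjusted p = 0.0286) and not in Gem (-0.41, SE 0.16, adjusted p = 0.103), and scaled it was -0.24 in HU and -0.14 in Gem. The HU call held without DMSO 3 but not without any other DMSO or HU library (adjusted p up to 0.126). Its ligase partner Lig4 was the member with the lowest level, 1.71 to 2.05 in DMSO and 1.1 to 1.49 in the drugs, which did not overlap and did not pass. Polq, the polymerase of microhomology-mediated joining, was called in HU (2.16 to 2.30 in DMSO, 1.17 and 1.08 in HU; -0.60, SE 0.20, adjusted p = 0.0483), while in Gem 1 it was at 2.13 and in Gem 2 at 1.24; that call was lost without any 1 of the DMSO or HU libraries (adjusted p = 0.0864 to 0.154).

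The other end joining members did not pass the test in either drug. Prkdc, the DNA-dependent kinase catalytic subunit, held 3.18 to 3.72 FPKM in DMSO, 2.83 to 4.07 in Gem, with 3.24 to 3.56 in HU. Dclre1c, which encodes the nuclease Artemis, held 7.57 to 8.58, 6.32 to 8.25 and 6.02 to 6.55, with HU alone below the DMSO range. Nhej1, which encodes the filament protein XLF, held 3.06 to 5.89, 4.78 to 5.91 and 3.17 to 3.37, and its Gem and HU libraries did not overlap. In the role group as a whole, 1 of 8 genes (12.5%) was called lower in Gem, beside 23.2% of all genes, and 3 of 8 (37.5%) in HU, beside 35.5%.

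For mismatch repair, Msh6 and Msh3 encode the alternative partners of the same MSH subunit, for small and for larger mismatches. Msh6 (chr17:87975062-87990892) had 14.15, 13.64 and 14.08 FPKM in DMSO, 10.67 and 10.18 in Gem, and 9.18 and 10.40 in HU. The DMSO libraries lay within 1 FPKM of each other and above every drug library. It was called in Gem (-0.39, SE 0.10, limma adjusted p = 0.0285) and in HU (-0.47, SE 0.10, adjusted p = 0.00876); scaled, it stayed below DMSO in every drug library, at -0.11 and -0.14, and did not pass (adjusted p = 0.614 and 0.406). As deposited, the Gem call was lost without any 1 of the DMSO or Gem libraries (adjusted p = 0.0515 to 0.156) and the HU call without HU 1 (adjusted p = 0.0582). Msh3 had 9.61, 5.97 and 9.28 in DMSO, 8.11 and 8.93 in Gem, and 7.50 and 8.40 in HU, with DMSO 2 the lowest of all libraries. Its differences were 0.06 and -0.03 as deposited, and scaled 0.33 and 0.29 (adjusted p = 0.451 and 0.408). Without DMSO 2 they were -0.135 and -0.224 (adjusted p = 0.498 and 0.224), and scaled 0.13 and 0.09. The difference between the changes of Msh6 and Msh3 was not tested. The ratio of Msh6 to Msh3 was 1.47 to 2.28 in DMSO and 1.14 to 1.32 in the drugs.

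Exo1, the exonuclease that removes the mismatched strand (chr1:175880581-175913489), had 9.45, 11.10 and 10.98 FPKM in DMSO, 7.29 and 10.01 in Gem, and 5.13 and 7.40 in HU. The HU libraries lay below DMSO and the Gem libraries overlapped it. Exo1 was called in HU (-0.68, SE 0.18, limma adjusted p = 0.023) and not in Gem (-0.27, SE 0.18, adjusted p = 0.317), and scaled it was -0.36 in HU and 0.01 in Gem. The HU call was lost without DMSO 2, DMSO 3 or HU 1 (adjusted p up to 0.142). The direct difference between Gem and HU was 0.41 (95% interval -0.06 to 0.88, adjusted p = 0.508), so the drugs were not shown to differ. Pms2, which nicks the strand to be repaired, ranged from 8.72 to 11.62 in DMSO, 6.84 to 10.42 in Gem, with 5.29 to 8.19 in HU, and did not pass (adjusted p = 0.515 and 0.10).

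The largest difference of any member, as deposited, was in Parp2, which encodes a poly(ADP-ribose) polymerase that acts at single-strand breaks beside PARP1 (chr14:50807841-50821301). Its FPKM was 76.76, 45.89 and 68.41 in DMSO, 29.84 and 30.14 in Gem, and 33.98 and 31.92 in HU. The drug libraries were close together, and the DMSO libraries were spread, with DMSO 2 the lowest. The log2 fold change was -1.03 (SE 0.19, limma adjusted p = 0.0123) in Gem and -0.90 (SE 0.19, adjusted p = 0.0101) in HU. Scaled, it was -0.73 (adjusted p = 0.132) and -0.54 (adjusted p = 0.138), at 39.80 to 66.61 in DMSO and 31.58 to 38.76 in the drugs. As deposited, the Gem call was lost without Gem 1 (adjusted p = 0.0573) or Gem 2 (adjusted p = 0.0864), and the HU call without HU 2 (adjusted p = 0.0547). Scaled, without DMSO 2 the differences passed, at -0.96 (adjusted p = 0.0248) in Gem and -0.765 (adjusted p = 0.0191) in HU, and no other library left out gave a call: without DMSO 1 they were -0.59 (adjusted p = 0.306) and -0.40 (adjusted p = 0.312), and without DMSO 3 -0.65 (adjusted p = 0.184) and -0.46 (adjusted p = 0.247). In DMSO 2 the mast cell and basophil markers summed to 1358 FPKM, beside 609 and 283 in DMSO 1 and DMSO 3; their part in the Parp2 value was not tested.

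Parp1, the main poly(ADP-ribose) polymerase, differed less. It had 43.81, 49.55 and 45.44 FPKM in DMSO, 38.90 and 38.98 in Gem, and 38.30 and 38.87 in HU. The 4 drug libraries lay within 1 FPKM of each other. The difference was -0.24 (SE 0.08, limma adjusted p = 0.0599) in Gem and -0.25 (SE 0.08, adjusted p = 0.0365) in HU, lost without any 1 of the DMSO or HU libraries (adjusted p up to 0.14), and scaled it was 0.05 and 0.10. The ratio of Parp1 to Parp2 was 0.571 to 1.08 in DMSO and 1.13 to 1.30 in the drugs, so Parp2 was the more abundant in 2 of 3 DMSO libraries and the less abundant in every drug library.

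Lig1, the ligase that seals Okazaki fragments and long-patch repair (chr7:13277283-13311433), had 30.26, 26.27 and 29.73 FPKM in DMSO, 22.06 and 16.88 in Gem, and 18.56 and 19.03 in HU. No drug library reached the DMSO range. Lig1 was called in Gem (-0.55, SE 0.13, limma adjusted p = 0.0206) and in HU (-0.59, SE 0.13, adjusted p = 0.00969); scaled, it was -0.26 and -0.24 (adjusted p = 0.32 and 0.261). As deposited, the Gem call was lost without DMSO 1 or Gem 2 (adjusted p up to 0.128) and the HU call without HU 1 (adjusted p = 0.0549). Lig3, the ligase that works with XRCC1, was at 5.32 to 6.56 in DMSO and 4.68 to 6.23 in the drugs and did not pass. Lig3 shares 25.1% of its exonic bases with Rffl on the other strand.

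Fen1, the flap endonuclease that works with LIG1 in both processes (chr19:10199132-10204169), did not follow it. Its FPKM was 92.88, 79.49 and 120.03 in DMSO, 105.69 and 98.26 in Gem, and 104.98 and 108.44 in HU. The drug libraries lay between the DMSO libraries. The difference was 0.08 and 0.15 (SE 0.16 each, limma adjusted p = 0.719 and 0.472), and scaled, where no drug library overlapped DMSO, 0.38 and 0.51 (adjusted p = 0.295 and 0.0987). Without DMSO 3, the HU difference passed as deposited (0.31, adjusted p = 0.0406), and scaled both drugs passed (0.56, adjusted p = 0.0365 in Gem, and 0.68, adjusted p = 0.00902 in HU). No other library left out gave a call; without DMSO 2 the differences were -0.05 (adjusted p = 0.81) and 0.02 (adjusted p = 0.94), and scaled 0.24 (adjusted p = 0.479) and 0.37 (adjusted p = 0.168). The ratio of Fen1 to Lig1 was 3.03 to 4.04 in DMSO and 4.79 to 5.82 in the drugs, without overlap and untested. The antisense gene Gm10143 covers 78.8% of the exonic bases of Fen1 and was itself at 4.91 to 7.11 FPKM. Tmem258, also on the other strand, shares 5.37% of them. It was at 234.45 to 371.14 FPKM in DMSO and 148.74 to 195.4 in the drugs. Reads from the shared parts cannot be told apart.

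Apex1, which encodes the endonuclease that cuts at abasic sites (chr14:50924968-50927139), had 112.18, 98.62 and 112.71 FPKM in DMSO, 94.36 and 91.18 in Gem, and 92.53 and 101.07 in HU. HU 2 overlapped DMSO, and the other drug libraries lay below it. The difference was -0.21 (SE 0.09, limma adjusted p = 0.107) in Gem and -0.15 (SE 0.09, adjusted p = 0.19) in HU, and scaled 0.09 and 0.21. Apex1 shares 61.7% of its exonic bases with Pip4p1 on the other strand, which was at 65.05 to 91.65 in DMSO, 40.98 to 47.09 in Gem, with 52.88 to 59.34 in HU. Reads from the shared part cannot be told apart, so the Apex1 values are uncertain by that share.

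Of the other base excision genes, Xrcc1, the scaffold of single-strand break repair, was called in HU (-0.25, SE 0.08, limma adjusted p = 0.0392), with 46.15 to 50.14 FPKM in DMSO and 38.71 to 42.25 in the drugs. Polb, the gap-filling polymerase, was called in HU (-0.46, SE 0.11, adjusted p = 0.014), with 24.84 to 28.26 in DMSO and 18.50 to 22.80 in the drugs. Scaled, these differences were 0.10 and -0.11 and neither passed. As deposited, the Xrcc1 call was lost without any 1 of the DMSO or HU libraries (adjusted p = 0.0663 to 0.165) and the Polb call without HU 2 (adjusted p = 0.0753). The glycosylases, which take out the damaged base, were not called. Ung, which removes uracil, was at 13.03 to 16.47 in DMSO and 11.02 to 13.49 in the drugs. Ogg1, which removes oxidised guanine, was at 4.19 to 5.61 and 2.86 to 5.71. Ogg1 shares 10.6% of its exonic bases with Camk1 on the other strand, at 180.6 to 196.69 in DMSO and 136.69 to 150.2 in the drugs. Reads from the shared part cannot be told apart, so the Ogg1 values are uncertain. Mutyh, which removes adenine opposite oxidised guanine, was at 4.34 to 6.49 in DMSO, 3.33 and 3.44 in Gem, and 4.69 and 4.59 in HU. In the role group as a whole, 2 of 11 genes (18.2%) were called lower in Gem, beside 23.2% of all genes, and 5 of 11 (45.5%) in HU, beside 35.5%.

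**Figure D4:**
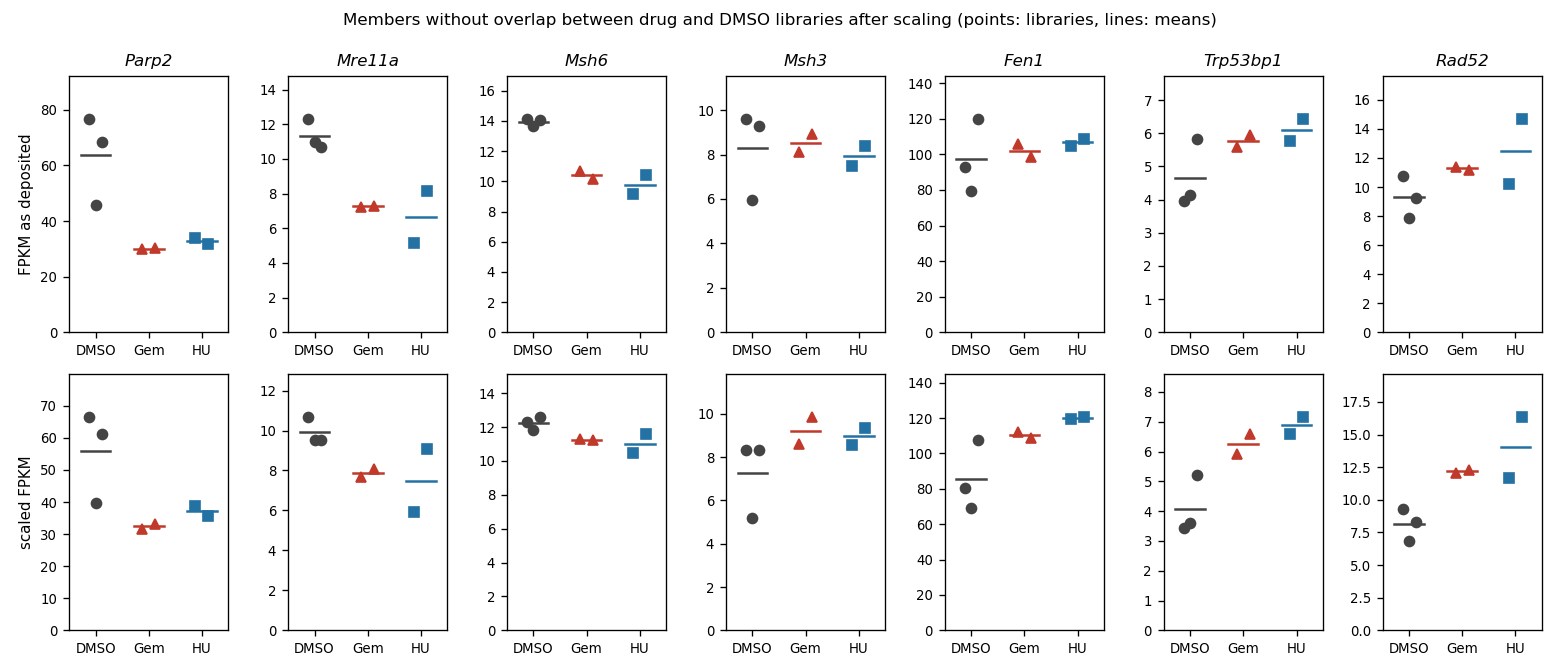
FPKM as deposited (top) and scaled (bottom) in each library (points) with group means (lines), on axes from 0, for the 7 members whose drug libraries did not overlap the DMSO libraries after scaling. Parp2, Mre11a and Msh6 lie below DMSO, and Msh3, Fen1, Trp53bp1 and Rad52 above it in the bottom row, while in the top row the last 4 overlap DMSO.

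The last role group holds proteins that act on unwound or annealed strands. Rad52, which anneals complementary single strands (chr6:119902698-119922828), had 10.74, 7.90 and 9.27 FPKM in DMSO, 11.41 and 11.14 in Gem, and 10.22 and 14.70 in HU. Gem lay above DMSO, and HU 1 lay within its range. The difference was 0.26 (SE 0.17, limma adjusted p = 0.301) in Gem and 0.38 (SE 0.17, adjusted p = 0.127) in HU. Scaled, with 6.85 to 9.32 in DMSO and 11.66 to 16.37 in the drugs, it was 0.54 (adjusted p = 0.179) and 0.70 (adjusted p = 0.0419), and the HU call was lost when any 1 of the 7 libraries was left out (adjusted p = 0.0581 to 0.20).

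Wrn, the RecQ helicase lost in Werner syndrome (chr8:33234384-33385527), had 5.52, 5.93 and 6.50 FPKM in DMSO, 4.54 and 4.87 in Gem, and 4.38 and 4.22 in HU. The groups did not overlap. It was called in HU (-0.40, SE 0.13, limma adjusted p = 0.0415) and not in Gem (-0.29, SE 0.13, adjusted p = 0.133), and scaled it was -0.09 in HU and -0.04 in Gem. The HU call was lost without any 1 of the DMSO or HU libraries (adjusted p = 0.0637 to 0.134). Blm, the RecQ helicase lost in Bloom syndrome (chr7:80454733-80535119), had 9.29, 12.88 and 11.47 in DMSO, 8.65 and 9.62 in Gem, and 8.25 and 9.85 in HU, which overlapped (-0.26 and -0.28, SE 0.15 each, adjusted p = 0.245 and 0.19). Rad54l, a motor protein of strand exchange (chr4:116094264-116123690), had 15.45, 16.14 and 19.85 in DMSO, 15.64 and 14.78 in Gem, and 15.35 and 13.33 in HU (-0.16 and -0.24, SE 0.13 each, adjusted p = 0.401 and 0.178). In both Blm and Rad54l the scaled differences were above 0, between 0.02 and 0.13. Rad54l shares 15.4% of its exonic bases with Lrrc41 on the other strand, at 24.86 to 30.21 FPKM. Reads from that shared part cannot be told apart.

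Between the drugs, all 36 of the 95% intervals of the difference held 0. Each reached from 0.20 (Parp1) to 0.83 (Atm) on the log2 scale to either side of the estimate, with 2 libraries a group. These widths are not a limit of detection. A call needs an adjusted p below 0.05 over all genes tested, so larger differences could go uncalled as well. Nhej1 had the largest difference, 0.57 higher in Gem (interval -0.02 to 1.15, limma adjusted p = 0.474), with 4.78 and 5.91 FPKM in Gem and 3.37 and 3.17 in HU. Across the roles, the median difference of Gem minus HU was 0.03 for break sensing, 0.15 for end joining, 0.20 for mismatch repair, 0.01 for base excision and 0.05 for the helicases and annealing or exchange proteins, beside 0.06 for all genes tested.

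The wider pathways were read from lists of other genes with the same roles. Of 19 further end joining and end processing genes tested, 4 were called lower in Gem (21.1%, beside 23.2% of all genes) and 9 in HU (47.4%, beside 35.5%), 0 were higher, and scaled 0 were called (limma; 1 in Gem and 2 in HU had an unadjusted p below 0.05). Their median was -0.19 and -0.32. Shld1, a subunit of the shieldin complex that acts with 53BP1, had 13.32 to 18.22 FPKM in DMSO and 8.85 to 10.35 in the drugs, and was called in Gem (-0.52, adjusted p = 0.0328) and in HU (-0.68, adjusted p = 0.00809). Rif1, which acts beside it, held 5.18 to 7.01 in DMSO and 5.07 to 6.64 in the drugs. Of the other shieldin genes listed, Shld2 was called in neither drug (-0.11, limma adjusted p = 0.68 in Gem, and -0.005, adjusted p = 0.984 in HU). Shld3 and Mad2l2 were called lower in HU (-0.60, adjusted p = 0.0119, and -0.52, adjusted p = 0.0359) and not in Gem (-0.16, adjusted p = 0.42, and -0.18, adjusted p = 0.445).

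Of 17 other genes of mismatch repair and its resynthesis step, 7 were called lower in Gem (41.2%, beside 23.2% of all genes) and 11 in HU (64.7%, beside 35.5%), with medians of -0.35 and -0.38. Rpa3, the smallest part of RPA, the complex that coats single-stranded DNA, remained called after scaling in Gem (-0.73, limma adjusted p = 0.0149) and in HU (-0.92, adjusted p = 0.00313). It had 66.46, 70.17 and 60.45 FPKM in DMSO, 33.30 and 30.35 in Gem, and 26.87 and 26.42 in HU. The larger subunits did not match it, as Rpa1 scaled was at -0.03 and -0.05 and Rpa2 at -0.16 and -0.03. Of 16 other base excision genes tested, 6 were called lower in Gem (37.5%, beside 23.2% of all genes) and 7 in HU (43.8%, beside 35.5%). Their medians were -0.29 and -0.41. Scaled, 0 were called in Gem and 2 were called lower in HU (12.5%, beside 5.42% of all genes). These were Nudt1, which clears oxidised nucleotides (-0.55, limma adjusted p = 0.0335), and Pole4, an accessory subunit of polymerase epsilon (-0.35, adjusted p = 0.0466).

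Of 19 break signalling partners tested, 6 were called lower (31.6%, beside 23.2% of all genes) and 1 higher in Gem, and 12 lower (63.2%, beside 35.5%) and 1 higher in HU. The gene called higher in both was Tlk2, a chromatin kinase active in replication, with 3, 4.45 and 3.43 FPKM in DMSO, 6.44 and 6.23 in Gem, and 5.41 and 6.43 in HU. Its libraries did not overlap. The difference was 0.68 (limma adjusted p = 0.0263) in Gem and 0.59 (adjusted p = 0.0274) in HU, and scaled 0.92 (adjusted p = 0.0548) and 0.88 (adjusted p = 0.0188). Scaled, 0 partners were called in Gem. In HU 2 were higher (10.5%, beside 4.67% of all genes) and 1 lower (5.26%, beside 5.42%). Besides Tlk2, the other called higher was Chek2, at 0.46 scaled (adjusted p = 0.0364) and 0.11 as deposited (adjusted p = 0.484). Ube2n and Ube2v2, the paired enzymes that build the ubiquitin chains RNF8 starts, were called lower in HU (-0.79, adjusted p = 0.00179, and -0.64, adjusted p = 0.00178), and scaled Ube2n still passed (-0.44, adjusted p = 0.0424) and Ube2v2 did not (-0.29, adjusted p = 0.0632).

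Several members act in replication as well, and the S-phase genes were lower in the drugs by a larger median difference than the members. Of 24 genes of S phase and proliferation, 11 were called lower in Gem (45.8%, beside 23.2% of all genes) and 18 in HU (75%, beside 35.5%), with medians of -0.42 and -0.50. Their summed level was 1406 to 1751 FPKM in DMSO, 1110 to 1191 in Gem, with 1095 to 1101 in HU, and for 22 of the 24 (91.7%, beside 42.6% of all genes) all drug libraries lay below DMSO. Scaled, the medians of the S-phase genes were -0.15 and -0.19, and limma called 0 of them. In each drug 4 had an unadjusted p below 0.05. The medians of the 36 members were -0.26 and -0.32 as deposited, and 0.01 and -0.01 scaled. The part of cycling cells in the levels of Lig1, Msh6, Exo1 and the other replication-linked members was not tested.

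Genes that share a start region with a member gave a further set of values. Of 36 members, 14 (38.9%) had a neighbour on the other strand whose start lies within 1000 bases, beside 17.5% of 10890 protein-coding genes tested. Of these 14 neighbours, 11 were tested, and 5 were called in Gem and 5 in HU as deposited, all lower. Of all genes tested, 23.2% were called lower in Gem and 35.5% in HU. Ankrd49, the neighbour of Mre11a, had 16.57, 14.10 and 16.36 FPKM in DMSO, 11.59 and 12.29 in Gem, and 8.05 and 8.09 in HU. It was the neighbour called after scaling, in HU alone (-0.54, limma adjusted p = 0.0261, and -0.08 in Gem, adjusted p = 0.766). Ankrd49 and Mre11a share 154 exonic bases, 2.6% of those of Mre11a. Aimp2, the neighbour of Pms2, had 36.38 to 40.22 in DMSO and 21.53 to 25.12 in the drugs, and was called in Gem (-0.67, adjusted p = 0.00699) and in HU (-0.73, adjusted p = 0.00177), whereas Pms2 was not called in either.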

How the data were processed

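RNA-seq of 7 libraries was used (DMSO 3, Gem 2, HU 2), grouped by their titles. The authors deposited 1 table of FPKM values, used as deposited; mm10, HTSeq, DESeq2, Cufflinks 2.1.1 and Bowtie 0.12.9 appear in the submitters' processing notes with no role or order. The tool behind the FPKM and the gene annotation: not given in the sources used here. Per the labels' protocols, RNA was amplified with Geo-seq before a TruePrep library kit; amplification of small inputs can add spread to low values. A search for the step of 1 read put 26.7% to 42.0% of low values within 0.1 of whole steps, where 20% is chance for a fixed step, so whole reads could not be recovered and depth stays unknown.

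Values were tested as log2(FPKM + 1) with limma 3.58.1 (R 4.3.3): 1 model of 3 groups, mean-variance trend, 4 residual degrees of freedom, two-sided, Benjamini-Hochberg over 13865 genes with at least 1 FPKM in at least 2 libraries. The pseudocount of 1 understates changes of low genes. Trimmed-mean factors came from the tested genes (30% of ratios and 5% of levels trimmed). The script was tested on simulated data. Exonic overlaps came from GENCODE M21.

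The members, lists and alternatives were chosen with earlier results of these data known. Full values were given to the members with the 2 smallest p in each drug contrast and the highest DMSO mean of each role; other members named with full values (Trp53bp1, Fen1, Msh3, Parp1, Rad50), list genes, neighbours and ratios were chosen after their values were seen. Alternatives were another pseudocount, other filters, other scalings, no trend, library weights, only the groups compared, a replicate block and leaving out each library. Of the 5 members with E2F letters in a promoter, 1 has no sequence reported here.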

Additional observations from a re-analysis of the deposited data

How the results depend on the processing

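The count of members called as deposited rests on the scale, and so does the share of all genes called. Of all genes tested, 23.2% were called lower in Gem as deposited, and 0.952% in either direction with trimmed-mean scaling. In HU 35.5% were called lower as deposited and 5.42% with that scaling. For the other settings the share of all genes is not given here, so the counts in this section are not read as results about the members. For Gem against DMSO (6 called) it was 0 with no filter, 10 of 27 tested with a mean FPKM of at least 5, 0 on the TPM scale, 0 with trimmed-mean scaling, 0 with quantile normalization, 3 with no trend, and 0 to 8 when 1 library was left out. It was 2 without DMSO 1, 2 without DMSO 2, 2 without Gem 1 and 0 without Gem 2. For HU against DMSO (15 called) it was 8 with no filter, 1 on the TPM scale, 1 with trimmed-mean scaling, 1 with quantile normalization, and 4 to 11 when 1 library was left out. Leaving out DMSO 1 gave 7, DMSO 2 gave 8, HU 1 gave 4 and HU 2 gave 5. Where 1 library is left in a group, it is assumed to vary like the others; for the other settings the cause was not tested. After scaling, the counts were 0 to 1 in Gem and 0 to 2 in HU with 1 library left out, alternatives chosen after the data were seen. Gem against HU gave 0 under every setting run.

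Same-numbered libraries correlated at -0.07 to 0.06 in their deviations from the group means. With 2 libraries in Gem and 2 in HU, the deviations within each of these groups mirror each other. These correlations therefore cannot tell whether the replicate numbers pair the libraries. With the replicate block, 5 members were called in Gem and 12 in HU, 2 of these higher (Fen1 and Trp53bp1); with the block and scaling together, 0 and 2.

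Signs turned for members near the shift of all genes, and the shift itself is what those scalings remove. In Gem, under trimmed-mean scaling, quantile normalization and the replicate block with scaling in that order, Nbn came to 0.075, 0.070 and 0.081, Apex1 to 0.087, 0.189 and 0.134, Blm to 0.015, 0.005 and 0.049, and Rad54l to 0.128, 0.143 and 0.246, with Rad54l at 0.035 on the TPM scale. Exo1 came to 0.008 under trimmed-mean scaling and 0.052 with block and scaling, and Wrn to 0.029 with both. In HU, with the TPM scale placed first, Apex1 came to 0.187, 0.206, 0.403 and 0.254, Blm to 0.037, 0.054, 0.057 and 0.088, Rad54l to 0.085, 0.103, 0.130 and 0.220, and H2ax under quantile normalization to 0.151. Depth is unknown, and groups of 2 or 3 libraries limit the precision.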

Other observations

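Nucleotide excision repair, which cuts out bulky lesions, is a further excision pathway that the members do not cover. All 27 genes of a list of this pathway were tested. As deposited, 8 were called lower in Gem (29.6%, beside 23.2% of all genes) and 17 in HU (63%, beside 35.5%), with medians of -0.33 and -0.42 for the list and -0.25 and -0.30 for all genes tested. Scaled, 0 were called in either drug (limma; 5 in Gem and 6 in HU had an unadjusted p below 0.05), and the medians were -0.04 and -0.07.

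Some subunits of the transcription factor TFIIH, which opens the DNA around a lesion, were among those called lower in both drugs. Gtf2h5, the smallest of them, had 41.68, 43.92 and 33.96 FPKM in DMSO, 24.58 and 23.55 in Gem, and 26.13 and 21.92 in HU (-0.70 in each, limma adjusted p = 0.0119 and 0.00556). Gtf2h4 had 16.98 to 19.24 in DMSO and 11.17 to 12.05 in the drugs (-0.59 and -0.61, adjusted p = 0.00906 and 0.00337). Among the other subunits, Cdk7 and Mnat1 were also called lower in both drugs, and Ercc3, Gtf2h1, Gtf2h2 and Gtf2h3 in HU alone. Ercc2 and Ccnh were called in neither, with Ercc2 at -0.32 in Gem (adjusted p = 0.216) and 0.04 in HU (adjusted p = 0.885). Rad23b, a partner of the damage sensor XPC, had 16.92 to 21.29 and 12.02 to 12.80 (-0.62 in each, adjusted p = 0.0127 and 0.00662). Ercc6, which acts where a polymerase has stalled, had 2.02 to 2.48 in DMSO, 3.53 and 2.39 in Gem, and 2.99 and 2.93 in HU, and did not pass (adjusted p = 0.343 and 0.28). These genes were picked after their values were seen.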
